A study of Mus musculus with 30 samples.

Results

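The comparison described here set macrophages recovered from direct co-culture with stromal cells against macrophages profiled ex vivo, and asked what remained different after stromal contact. It rests on 6 of the 30 RNA sequencing libraries of a mouse series whose title joins macrophages to vitamin A. The co-cultured group held 3 libraries of F4/80+ cells grown in direct contact with podoplanin-positive (PDPN+) stromal cells that the labels place in the omentum, with no agent added. The ex vivo group held 3 libraries of untreated macrophages, whose source label names a lavage. Macrophages cultured alone, without any agent, are quoted beside them (3 libraries), as are macrophages cultured across a transwell from PDPN+ cells and macrophages given 1 uM all-trans retinoic acid (3 libraries each). A further macrophage group, whose titles carry BMS at a dose of 1 uM (3 libraries), is not described. It helped set the spread used in each test. Strain, sex, age, culture length and any genetic change are not given in the labels used here, and nothing says whether the 3 replicates came from separate animals or cultures, so each p value reflects the variation among these libraries, which may be technical.

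Each of 17774 genes was tested with edgeR's quasi-likelihood test, and a gene was called at a Benjamini-Hochberg adjusted p under 0.05. Every adjusted p below comes from that test. Levels are counts scaled to library size (CPM) by the TMM method, and differences are log2 fold changes of co-culture minus ex vivo, given with their standard error (SE). Sorted macrophages can carry stromal RNA, so genes whose mean level in PDPN+ cells cultured alone was more than 4 times that in macrophages cultured alone were set apart as the stromal class. This class held 2231 of the genes tested, and 15543 lay outside it. The rule set no minimum level and did not use ex vivo levels, so class membership alone does not show stromal origin. Just inside the limit stood Numbl (23.2 CPM in PDPN+ cells, 5.80 CPM in macrophages alone), and just outside it stood Rpl15 (423 and 106 CPM).

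Macrophages of the body cavities are known to depend on the transcription factor Gata6, whose expression is kept up by retinoic acid, the active product of vitamin A. Retinoic acid binds receptors of the Rar family, and stromal cells of the cavity lining are a known source of it. Cavity macrophages lose much of this programme in culture.

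The 6 libraries held 30737065 to 44526756 counts, from 12678 to 25000 sorted cells. In the batch of replicate 1 the source name of the co-cultured macrophage library carries the stromal label, against its title, and the title was used. Adgre1, the gene of the F4/80 antigen used for the sort, lay at 2713, 3524 and 3558 CPM in co-culture and at 4736, 3054 and 4916 CPM ex vivo. Of 16 pan-macrophage markers tested, 4 were called higher and 1 lower, beside 9.47% higher and 5.45% lower over all genes tested. Neither Spi1 nor Adgre1 was called. Co-culture replicate 3 (batch 340) stood apart from its 2 partners: over the 8246 genes that averaged 10 CPM or more in co-culture, it lay over 4 times above both of them for 115 genes and over 4 times below both for 81, whereas replicates 1 and 2 did so for at most 7 genes in either direction. By the same measure over 8164 genes, ex vivo replicate 3 lay above both partners for 47 genes, and ex vivo replicates 1 and 2 lay below both for 30 and 14. The values of co-culture replicate 3 are therefore given separately wherever a result leans on it.

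In all, 2652 genes differed between co-cultured and ex vivo macrophages, 14.9% of those tested. Of these, 1684 were higher in co-culture (9.47%) and 968 lower (5.45%), and the median log2 fold change over all genes tested was -0.01. Outside the stromal class 1265 genes were higher (8.14%) and 833 lower (5.36%), with a median of -0.05. In the stromal class 419 were higher (18.8%) and 135 lower (6.05%), with a median of 0.73. Leaving out ex vivo replicate 1, 2 or 3 left 1726, 1581 or 1654 calls, and leaving out a co-culture library left 1797 to 1922. Genes outside the class called lower fell to between 412 (without co-culture replicate 3) and 550 (without ex vivo replicate 1), and those called higher to 832 and 817 without ex vivo replicate 1 and 3. Class genes called higher fell to between 211 and 241 without any 1 ex vivo library, and those called lower to between 50 and 76 in every omission but that of ex vivo replicate 1. With batch as a block, 1347 genes outside the class were called lower. In 7229 genes (40.7%) no co-culture library overlapped with an ex vivo library.

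Against the same ex vivo libraries, 1654 genes were higher (9.31%) and 1510 lower (8.5%) in macrophages alone. Across a transwell 1353 were higher (7.61%) and 947 lower (5.33%), and with all-trans retinoic acid 1515 were higher (8.52%) and 1134 lower (6.38%). Co-cultured macrophages differed from macrophages alone in 112 genes higher (0.63%) and 12 lower (0.0675%), and 7 genes were higher in co-culture than across a transwell (0.0394%). Selp, Rarb and Hk2, described below, are among those above macrophages alone.

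Outside the stromal class, some of the genes that stood highest above ex vivo cells were at like levels in the 3 co-culture libraries. Gpnmb, a glycoprotein of lysosomes in lipid-laden macrophages (chr6:49036546-49070929, GRCm38), lay at 3.80, 4.74 and 5.83 CPM ex vivo and at 2377, 2989 and 3826 CPM in co-culture. Its log2 fold change was 9.28 (SE 0.65, adjusted p = 1.91e-06). Ms4a7, a tetraspan membrane protein of macrophages, went from 0.44, 0.06 and 0.75 CPM to 375.5, 297.7 and 328.5 CPM (log2 9.63, SE 0.82, adjusted p = 4.66e-06). For these genes all 3 co-culture libraries stood at a like level, far above every ex vivo library. Ms4a14 had no count ex vivo and 15.6 to 17.3 CPM in co-culture, at least 623-fold higher against a floor of 3 counts over the ex vivo group. Lhfpl2 rose from at most 0.90 CPM to 151, 179 and 254 CPM (log2 9.23, SE 1.10, adjusted p = 8.02e-05). Macrophages alone had 4375 ± 2379 CPM of Gpnmb, 749 ± 325 of Ms4a7, 19.4 ± 12.7 of Ms4a14 and 108 ± 92.9 of Lhfpl2 (SD, n = 3). These genes were not called between co-culture and macrophages alone (adjusted p of 0.384 or more).

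Other leading genes varied far more between the co-culture libraries. Mmp12, the macrophage elastase (chr9:7344381-7369499), was at most 1.23 CPM ex vivo and stood at 261, 372 and 15537 CPM in co-culture (log2 12.64, SE 2.76, adjusted p = 0.00678). Slc7a11, the cystine importer, stood at 31.0, 46.0 and 1087 CPM there against at most 0.09 CPM ex vivo. Spint1, an inhibitor of serine proteases, had no count ex vivo and 9.78, 32.3 and 240.3 CPM in co-culture, at least 3528-fold higher. In each of these genes replicate 3 was the highest library, while replicates 1 and 2 also lay above all ex vivo libraries. The same order held for Clec4n (859, 1118 and 5323 CPM against at most 7.02), an innate lectin receptor, and for Ggta1 (12.96, 15.3 and 77.5 CPM against at most 0.09), a galactosyltransferase. All 5 kept their call in each of the 6 fits that left out 1 library. None of them was called between co-culture and macrophages alone, where Mmp12 lay at 337, 1145 and 11225 CPM.

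The collagenases Mmp13 and Mmp8, the chemokine gene Ccl7 and Pdpn had the same order but were less stable. Mmp13 lay at 9.84, 24.2 and 547 CPM in co-culture (adjusted p = 0.0191), and its call was lost without co-culture replicate 3 and without any 1 ex vivo library, with p up to 0.075. Mmp8 lost its call without ex vivo replicate 1 or 2 (up to 0.0637), Ccl7 without any 1 ex vivo library (up to 0.0878), and Pdpn, at 12.5, 19.9 and 333 CPM, lost its call in all 6 (up to 0.15). PDPN+ cells alone averaged 172.9 CPM of Pdpn and 102.2 CPM of Ccl7. Macrophages alone had 0.32, 5.91 and 223.7 CPM of Pdpn and 1.06, 0.91 and 191.3 CPM of Ccl7, so replicate 3 there held most of the level behind their place outside the class. Co-cultured macrophages had 6.68%, 22.0% and 246% of the Pdpn level in co-cultured PDPN+ cells of the same batch. Those PDPN+ libraries came from 25000, 3730 and 2148 sorted cells. The part of carried RNA in both genes was not tested. Ak4, a mitochondrial adenylate kinase, had 1 count ex vivo and 1317 in co-culture, a ratio of 1616 with an exact 95% binomial interval of 289.5 to 63873 that covers counting error only.

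The genes that stood furthest below ex vivo cells were low in all 3 co-culture libraries, though at low levels these libraries differed among themselves. Retnla, a secreted product of alternatively activated macrophages (chr16:48842551-48844461), fell from 537, 683 and 576 CPM to 0.97, 0.20 and 0.12 CPM (log2 -10.44, SE 1.04, adjusted p = 2.12e-05). Gbp2b, an interferon-induced GTPase, fell from 326, 182.5 and 243 CPM to 0.58, 1.40 and 0.48 CPM (log2 -8.32, SE 1.61, adjusted p = 0.00316). S1pr5, a sphingosine phosphate receptor, lay at 68.4, 62.2 and 42.9 CPM ex vivo and at most at 0.68 CPM in co-culture. These genes were close to absent after co-culture. Itgb7, the integrin chain that pairs with Itga4 in gut homing, fell from 221, 306 and 217 CPM to 2.39, 5.08 and 4.02 CPM (log2 -6.07, SE 0.45, adjusted p = 2.23e-06). Cmah, the enzyme that hydroxylates sialic acid, fell from 215, 220.3 and 192 CPM to 3.60, 3.48 and 3.57 CPM (log2 -5.92, SE 0.74, adjusted p = 0.000125). Macrophages alone were low too, with means of 0.37 CPM for Retnla, 0.95 for Gbp2b, 0.59 for S1pr5, 4.2 for Itgb7 and 6.1 for Cmah.

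The same rule named Tppp3 and Tppp (tubulin-binding proteins), Pglyrp1 (a peptidoglycan-binding protein), Rfx2, Cyp2ab1, Ccdc88c and Hgd (homogentisate dioxygenase) with log2 fold changes between -7.33 and -4.76. Without batch 340, Tppp reached an adjusted p of 0.0576. Efcab5 and the receptor gene Vmn2r26, which has close relatives in its family, were named too. Efcab5 kept its call only without co-culture replicate 2 (p up to 0.1 in the others), and Vmn2r26 in none of the 6 (p up to 0.105 without co-culture replicate 1).

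The cavity macrophage programme was lower in co-culture in part of its members. Of 30 genes on this list 9 were called lower and 0 higher, with a median of -1.36, against 5.45% lower and a median of -0.01 over all genes tested. Leaving out co-culture replicate 1 or co-culture replicate 3 left 4 members called lower, and the fit with batch as a block called 14 lower and 1 higher. The list was chosen with earlier results of these data known.

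Prg4, the lubricating proteoglycan of joints and body cavities (chr1:150449412-150466165), was the member furthest below ex vivo cells, at 4123, 3769 and 4008 CPM ex vivo and 22.2, 104 and 123 CPM in co-culture. Its log2 fold change was -5.62 (SE 0.99, adjusted p = 0.00169). Icam2, an adhesion molecule that marks cavity macrophages (chr11:106377656-106388075), lay at 1085, 917 and 941 CPM ex vivo and at 69.0, 128 and 84.3 CPM in co-culture (log2 -3.43, SE 0.53, adjusted p = 0.000581). Garnl3, a Rap GTPase-activating protein, lay at 352, 230.2 and 335 CPM against 26.0, 51.4 and 15.7 CPM (log2 -3.34, SE 0.56, adjusted p = 0.0011). No co-culture library of these 3 genes reached an ex vivo library. Aspa, which hydrolyses N-acetylaspartate, was lower in the same way (91.9, 50.6 and 70.4 CPM against 11.7, 15.8 and 9.49 CPM, adjusted p = 0.00855). These 4 kept the call in each single omission.

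Selp, the adhesion molecule P-selectin, took a middle place. It stood at 1099, 995 and 1080 CPM ex vivo, at 313, 487 and 279 CPM in co-culture and at 12.6, 10.1 and 15.4 CPM in macrophages alone. Co-cultured cells were thus below ex vivo cells (log2 -1.60, SE 0.37, adjusted p = 0.01) and above cells alone (log2 4.78, adjusted p = 0.000216). The call against ex vivo was lost without co-culture replicate 1 or co-culture replicate 3 (p up to 0.0567) and without batch 340 (0.0614). F5, coagulation factor V, had the same order at 1132, 1064 and 1331 CPM ex vivo, 167, 364 and 221 CPM in co-culture and at most 22.1 CPM alone, but its call against ex vivo (adjusted p = 0.0329) was lost in all 6 omissions (up to 0.122) and without batch 340 (0.127). Tgfb2 was lower (adjusted p = 0.0131, up to 0.0613 without co-culture replicate 3), and Naip1 at an adjusted p of 0.0481 lost its call in all 6 omissions, without batch 340 (0.0919), with RLE scaling (0.0535) and with no filter (0.0508).

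Gata6 itself was not called. It lay at 22.8, 70.5 and 115 CPM ex vivo and at 36.1, 81.4 and 49.9 CPM in co-culture, and the groups overlapped (log2 -0.36, SE 0.48, adjusted p = 0.677, 95% interval -1.40 to 0.69). In macrophages alone it lay at 3.70, 7.61 and 5.37 CPM. Gata6 belongs to the stromal class, since PDPN+ cells alone had 153 ± 36.9 CPM (SD, n = 3), and the part of carried RNA in its level was not tested. The macrophages given all-trans retinoic acid, whose culture label names no stromal cells, had 77.2 ± 27.2 CPM (SD, n = 3).

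Several further members were not called. Alox15, the lipoxygenase that is abundant in cavity macrophages, lay at 12396, 11480 and 11084 CPM ex vivo and at 3426, 4050 and 382 CPM in co-culture (log2 -2.20, SE 1.07, adjusted p = 0.188, and 0.00821 with the batch block). Padi4, which converts arginine to citrulline in proteins, lay at 1557, 1821 and 1497 CPM against 1398, 1701 and 297 CPM (adjusted p = 0.723, 95% interval -2.47 to 1.34). In both genes replicate 3 was the low library. Timd4, a receptor for phosphatidylserine, lay at 890.2, 295 and 686 CPM against 84.5, 60.9 and 2.26 CPM (log2 -3.70, SE 1.42, adjusted p = 0.0954, and 0.00228 with the batch block).

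**Figure D1:**
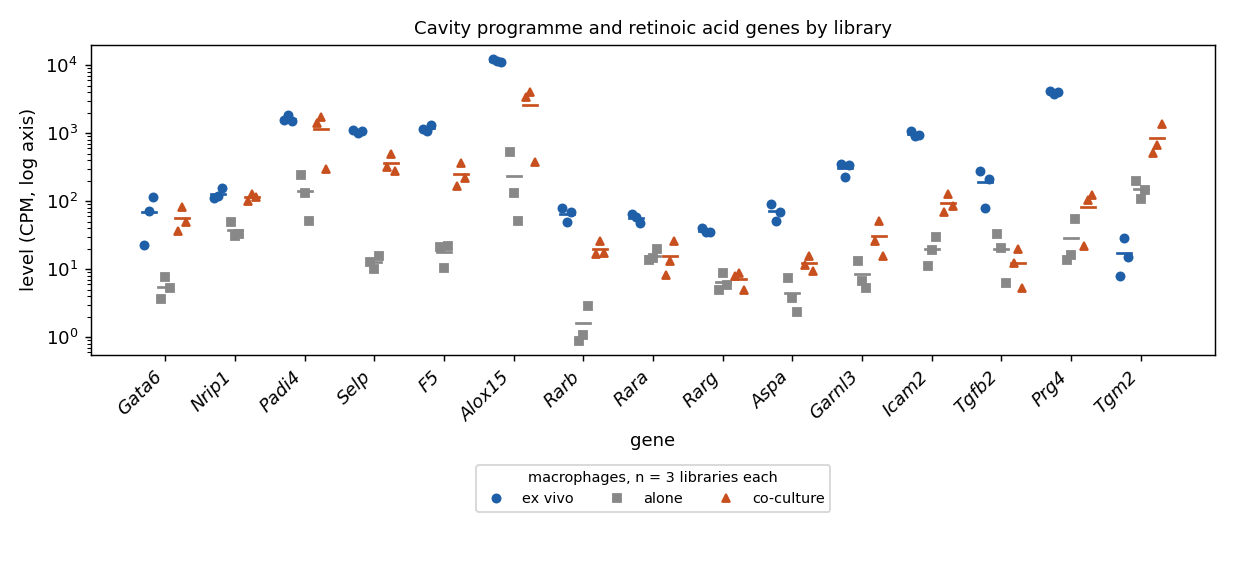
Level of 15 cavity programme and retinoic acid genes in CPM on a log axis, for macrophages ex vivo, alone and in co-culture; each point is 1 of 3 libraries and each bar the mean. Prg4, Icam2 and Garnl3 of co-culture lie below every ex vivo library, Gata6 overlaps, and Tgm2 of co-culture (510 to 1376 CPM) lies above both other groups.

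Genes tied to retinoic acid split into both directions. Of 17 tested, 4 were called higher and 4 lower, beside 9.47% higher and 5.45% lower over all genes tested. The list median was -0.35. Each single omission left 1 or 2 called higher, and leaving out co-culture replicate 1 or 3 left 2 called lower. Among the receptors Rarg was lower (41.0, 34.7 and 35.1 CPM ex vivo, 7.84, 8.79 and 4.97 CPM in co-culture, log2 -2.40, SE 0.31, adjusted p = 0.000148). Rara was lower too (65.8, 58.5 and 47.2 CPM against 8.17, 13.2 and 26.1 CPM, log2 -1.90, SE 0.36, adjusted p = 0.00296). Neither receptor was called against macrophages alone (adjusted p = 0.924 for Rarg and 0.971 for Rara).

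Rarb, the receptor whose own promoter responds to retinoic acid, lay between ex vivo cells and macrophages alone. Its level was 78.3, 49.2 and 69.0 CPM ex vivo, at 16.9, 26.1 and 17.1 CPM in co-culture and at 0.88, 1.07 and 2.83 CPM alone. The difference from ex vivo was called (log2 -1.75, SE 0.43, adjusted p = 0.0124) but was lost without co-culture replicate 1 or co-culture replicate 3 (up to 0.0588). Cyp26a1, a cytochrome that degrades retinoic acid, lay at 17.7, 32.7 and 35.6 CPM ex vivo and 8.26, 19.5 and 6.22 CPM in co-culture (adjusted p = 0.372) and had no count in any library of macrophages alone. Both genes are in the stromal class. Cyp26b1, its relative, had 351 counts ex vivo and 1 in co-culture, a ratio of 286.1 with an exact 95% binomial interval of 51.0 to 11331 for counting error, and lost its call without any 1 of the co-culture replicates (adjusted p 0.0169, up to 0.0689) and in DESeq2 (0.114), which called 3 list members lower.

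The upstream sequences of Rarb and Cyp26a1 are shown because these receptor targets were the members of the list whose start region held a direct repeat of the retinoic acid element. The search looked for GNTCA repeated after 6 further bases, on both strands, in the 250 bases before the first listed RefSeq start (GRCm38.p6). It matched 2 of 13 list members with a sequence and 212 of 27025 promoters (0.784%). Capitals mark the match, and sequences run 5′ to 3′ on the gene's strand; in Cyp26a1 the repeat reads on the opposite strand. The Rarb stretch is chr14:16575506-16575535 (minus strand), which the GENCODE annotation places in an exon, whose gene was not looked up. The Cyp26a1 stretch is chr19:37697558-37697797 (plus strand). A match is a description of letters and shows no binding.
Rarb: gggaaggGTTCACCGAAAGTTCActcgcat
Cyp26a1: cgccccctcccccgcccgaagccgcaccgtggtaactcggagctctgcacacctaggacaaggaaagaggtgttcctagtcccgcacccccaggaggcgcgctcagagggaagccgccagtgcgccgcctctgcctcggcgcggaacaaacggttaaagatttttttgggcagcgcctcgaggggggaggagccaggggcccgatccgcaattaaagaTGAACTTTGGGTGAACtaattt

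Tgm2, a transglutaminase known to be induced by retinoic acid (chr2:158116402-158146436), went past the ex vivo level. It lay at 8.04, 28.9 and 15.1 CPM ex vivo, at 510, 667 and 1376 CPM in co-culture and at 199.8, 109 and 146.5 CPM alone. Its log2 fold change against ex vivo was 5.57 (SE 0.64, adjusted p = 6.69e-05), and all 6 omissions kept the call. The difference from macrophages alone was not called (log2 2.44, adjusted p = 0.0595). Cd38, an ectoenzyme that consumes NAD, lay at 187, 329 and 227 CPM ex vivo and 1087, 934 and 728 CPM in co-culture, and its call (adjusted p = 0.0402) was lost in all 6 omissions. Nrip1, a nuclear receptor corepressor, lay at 110, 120.1 and 155 CPM ex vivo and 101, 127 and 113 CPM in co-culture (95% interval of the log2 difference -0.76 to 0.33), and at 48.7, 30.4 and 32.7 CPM alone. The other members called higher, Hic1 and Crabp2, belong to the stromal class and stayed under 5.30 CPM in every co-culture library.

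Among 24 lineage transcription factors 6 were called higher and 1 lower (3 lower with the batch block), beside 9.47% higher and 5.45% lower over all genes tested. Spi1, the master regulator of the lineage, lay at 256, 249.9 and 239.5 CPM ex vivo and 265, 279 and 277 CPM in co-culture (adjusted p = 0.727, 95% interval -0.23 to 0.42). Nfe2 was lower (217, 168 and 171 CPM against 19.8, 39.8 and 14.7 CPM, log2 -2.95, SE 0.54, adjusted p = 0.00201). Bhlhe41, a repressor that supports self-renewal of resident macrophages, was higher (4.59, 2.94 and 3.73 CPM against 38.2, 38.8 and 28.6 CPM, log2 3.19, SE 0.25, adjusted p = 2.69e-06). Tfec and Mitf, both of the family that drives lysosomal genes, rose by 2.10 (SE 0.50) and 0.99 (SE 0.22) on the log2 scale. Irf8 rose by 1.15 (SE 0.25, adjusted p = 0.00661). Mitf reached an adjusted p of 0.0614 without batch 340, while the others named here kept their call in every omission and without that batch.

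Of 18 lysosomal and lipid-handling genes 10 were called higher and 0 lower (1 lower with the batch block), with a median of 2.02, beside 9.47% higher over all genes tested. At the lowest, 8 stayed called, without co-culture replicate 3 or without ex vivo replicate 1 or ex vivo replicate 3. Ctsd, the aspartic protease of lysosomes (chr7:142375911-142388038), lay at 5018, 5679 and 6561 CPM ex vivo and at 47573, 69891 and 42374 CPM in co-culture (log2 3.17, SE 0.37, adjusted p = 6.78e-05). Cd63, a lysosomal tetraspanin, lay at 63.5, 53.6 and 71.2 CPM against 1192, 1436 and 1473 CPM (log2 4.41, SE 0.27, adjusted p = 1.04e-06). Trem2, a lipid-sensing receptor, lay at 28.5, 36.1 and 30.7 CPM against 459, 472 and 269 CPM (log2 3.61, SE 0.39, adjusted p = 3.75e-05). All co-culture libraries of these genes exceeded all ex vivo libraries, and macrophages alone had 36881, 38742 and 37002 CPM of Ctsd. Lipa, the lysosomal lipase, and Fabp5, a fatty acid carrier, rose by 1.83 (SE 0.38) and 2.20 (SE 0.43) on the log2 scale. Spp1, the secreted osteopontin, ranged from 5.98 to 224 CPM ex vivo and from 2693 to 7322 CPM in co-culture, and its call (adjusted p = 0.0251) was lost without co-culture replicate 3 and without ex vivo replicate 1 or 3 (up to 0.098) and without batch 340 (0.0614).

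The upstream stretch of Ctsd is shown because Ctsd had the highest level of the group in co-culture and held the palindrome TCACGTGA, the core of the lysosomal element. Within 250 bases before their start, 1 of 13 list members with a sequence and 217 of 27025 promoters (0.803%) held it on either strand. The stretch is chr7:142387908-142387937 on the minus strand (GRCm38.p6), inside a GENCODE exon of Ctsd, with the palindrome in capitals.
Ctsd: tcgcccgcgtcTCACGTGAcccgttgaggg

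Of 11 iron and heme genes tested, 8 were higher and 0 lower, with a median of 1.70, beside 9.47% higher over all genes tested. Each single omission left 8 higher, and without batch 340 7 were higher and 1 lower. Slc40a1, the iron exporter ferroportin, lay at 0.03, 0.11 and 0.66 CPM ex vivo and 79.6, 34.7 and 148 CPM in co-culture (log2 8.32, SE 1.03, adjusted p = 0.000115). Fth1, the ferritin heavy chain, lay at 1689, 1325 and 1721 CPM against 20577, 22022 and 40836 CPM (log2 4.10, SE 0.47, adjusted p = 6.28e-05). Hmox1, heme oxygenase, lay at 98.7, 101 and 116 CPM against 1070, 1320 and 2727 CPM (log2 3.98, SE 0.57, adjusted p = 0.000359). These export, storage and breakdown genes stood above ex vivo cells in every co-culture library.

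Genes of the oxidative stress defence shared 3 members with this list. Of 19 defence genes 14 were higher and 0 lower, beside 9.47% higher over all genes tested. Their median was 2.33, and 13 stayed called higher at the lowest single omission. Gclm, a subunit of the enzyme that starts glutathione synthesis, lay at 9.12, 29.5 and 37.3 CPM ex vivo and 256, 270 and 453 CPM in co-culture (log2 3.65, SE 0.54, adjusted p = 0.000435). Prdx1, a peroxiredoxin, lay at 653, 617 and 676 CPM against 3761, 3395 and 12184 CPM, with replicate 3 highest (log2 3.27, SE 0.72, adjusted p = 0.00724). Gsta3, a glutathione transferase, rose from at most 0.09 CPM to 37.9, 42.3 and 130 CPM (log2 10.18, SE 0.83, adjusted p = 3.50e-06). Catalase (Cat) was higher as well (log2 1.58, SE 0.36), though macrophages alone exceeded co-culture in level, at 2139, 2108 and 863 CPM against 643, 640 and 525 CPM.

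Gsta3 was the member of that list whose upstream window held the antioxidant element, searched as TGAC and GCA 3 bases apart on both strands (1 of 15 members with a sequence, 648 of 27025 promoters, 2.40%). Its 250 bases before the RefSeq start are chr1:21240335-21240584 on the plus strand (GRCm38.p6), with the match in capitals.
Gsta3: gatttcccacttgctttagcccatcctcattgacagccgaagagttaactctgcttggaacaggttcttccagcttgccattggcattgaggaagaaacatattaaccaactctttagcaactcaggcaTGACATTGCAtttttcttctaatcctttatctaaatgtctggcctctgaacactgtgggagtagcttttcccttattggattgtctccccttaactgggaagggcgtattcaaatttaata

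Genes induced by low oxygen and genes of glycolysis were higher in 11 of 19 cases and lower in 0, beside 9.47% higher over all genes tested. Their median was 1.89, and 8 stayed called at the lowest single omission. Vegfa, the endothelial growth factor (chr17:46016993-46032369), lay at 0.82, 0.19 and 0.35 CPM ex vivo, at 123, 180 and 380.1 CPM in co-culture and at 53.6, 71.4 and 66.5 CPM alone. Its log2 fold change against ex vivo was 8.95 (SE 0.73, adjusted p = 3.50e-06). Bnip3, a mitophagy receptor, rose from 26.0, 23.6 and 23.9 CPM to 200.4, 229 and 257 CPM (log2 3.18, SE 0.33, adjusted p = 3.12e-05). Aldoa, the glycolytic aldolase, rose from 594, 576 and 518 CPM to 2049, 2640 and 2487 CPM (log2 2.04, SE 0.21, adjusted p = 3.12e-05). In these genes the 3 co-culture libraries agreed within a few fold and none overlapped with ex vivo. Hk2, a hexokinase, was above ex vivo cells (22.0, 17.7 and 26.0 CPM against 72.0, 97.7 and 106 CPM, adjusted p = 8.94e-05) and also above macrophages alone (31.1, 30.5 and 48.8 CPM, adjusted p = 0.0238). Adm, a vasodilator peptide of the stromal class, lay at most at 0.22 CPM ex vivo and at 29.1, 17.3 and 17.3 CPM in co-culture. Pkm lost its call without co-culture replicate 3 or ex vivo replicate 1 or 3 (up to 0.0865), and Pgk1 in every omission but that of co-culture replicate 1 (up to 0.131) and with no filter (0.0514).

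Sterol synthesis genes were higher in most cases. Of 19 genes, none in the stromal class, 16 were higher and 0 lower, beside 9.47% higher over all genes tested. Their median was 2.24, and 14 stayed called at the lowest single omission. Sqle, squalene epoxidase, lay at 3.64, 18.5 and 13.5 CPM ex vivo and 122, 147 and 133 CPM in co-culture (log2 3.45, SE 0.46, adjusted p = 0.000205). Cyp51, which removes a methyl group from lanosterol (chr5:4081145-4104746), lay at 10.3, 19.4 and 15.4 CPM against 131, 171 and 159 CPM (log2 3.31, SE 0.28, adjusted p = 4.69e-06). Macrophages alone lay in the same range for Cyp51 (120.1, 131 and 201 CPM). Of the sterol exporters that the receptor LXR controls, Abcg1 was lower (38.9, 27.5 and 25.01 CPM against 3.33, 4.16 and 5.98 CPM, log2 -2.81, SE 0.34, adjusted p = 9.83e-05). Abca1 was higher at an adjusted p of 0.0211, which rose to 0.0905 without ex vivo replicate 2 and also missed the threshold without co-culture replicate 3 or ex vivo replicate 3. Among fatty acid genes Fads1, a desaturase, was higher (log2 3.91, SE 0.62) and Elovl5, an elongase, lower (445, 408 and 416 CPM against 87.0, 108 and 99.1 CPM, log2 -2.15, SE 0.18, adjusted p = 4.66e-06). The sterol element, searched as ATCAC and CCAC 1 base apart on both strands, was in 0 of 13 members with a sequence and in 53 of 27025 promoters (0.196%), which says only that these letters are not in those windows.

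**Figure D2:**
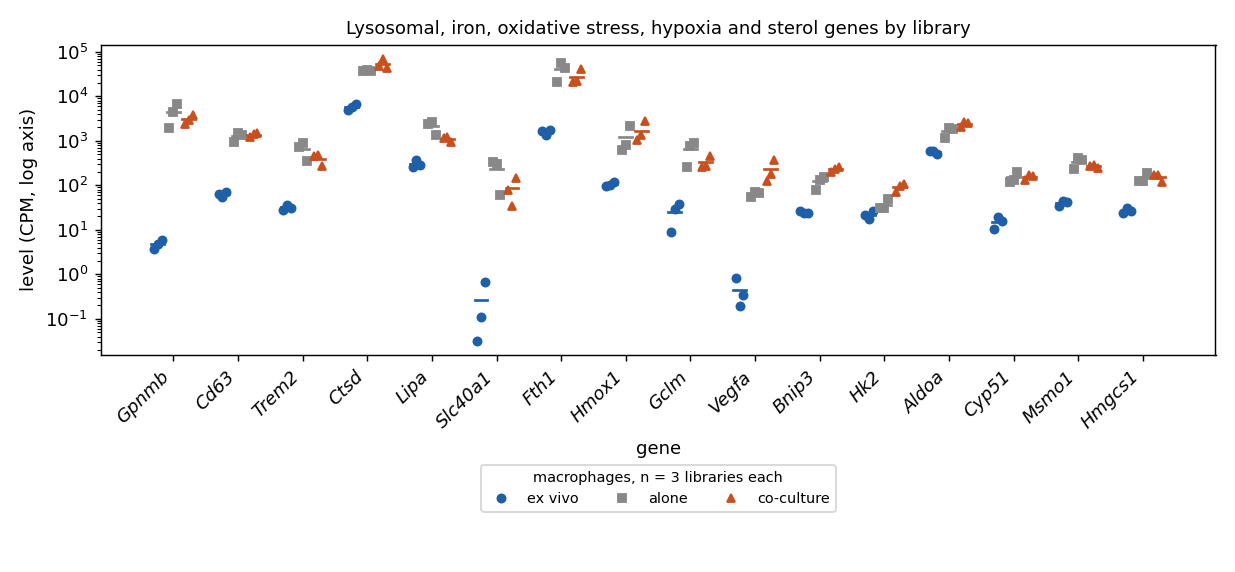
Level of 16 lysosomal, iron, oxidative stress, hypoxia and sterol genes in CPM on a log axis, for macrophages ex vivo, alone and in co-culture (each point 1 of 3 libraries, each bar the mean). Every co-culture library lies above every ex vivo library, from Vegfa at 0.19 to 0.82 CPM ex vivo and 123 to 380.1 CPM in co-culture to Ctsd at 42374 CPM or more in co-culture.

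Of 26 genes of DNA replication and mitosis, 18 of them in the stromal class, 13 were called lower and 0 higher. This stood beside 5.45% lower over all genes tested and 6.05% lower in the stromal class. The list median was -2.29. Without ex vivo replicate 2, which was the highest, 3 stayed called, without ex vivo replicate 3 7, and without co-culture replicate 1, 2 or 3 5, 6 or 4. Mcm7, of the replicative helicase, lay at 59.8, 221 and 89.5 CPM ex vivo and 19.2, 27.0 and 14.2 CPM in co-culture (log2 -2.67, SE 0.49, adjusted p = 0.00218) and kept its call in each omission. Mki67, a marker of cycling cells, lay at 33.7, 180 and 90.0 CPM against 28.6, 24.1 and 20.1 CPM, and its call (adjusted p = 0.0441) was kept only without ex vivo replicate 1 and missed with the batch block (0.0519), reaching 0.222 without ex vivo replicate 2. In bulk samples, fewer cycling cells and less of these RNAs per cell cannot be told apart.

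Genes of alternative activation went both ways, with 4 of 13 higher and 4 lower, beside 9.47% higher and 5.45% lower over all genes tested. Their median was 2.52. Without co-culture replicate 2 or ex vivo replicate 3, 2 stayed called lower. Beside Retnla, the chitinase-like Chil3 was lower (12.1, 117 and 38.0 CPM against 3.18, 3.20 and 3.54 CPM, log2 -4.13, SE 0.92, adjusted p = 0.00779, and 0.0529 without batch 340). The lectins Mgl2 and Clec10a were lower at adjusted p of 0.0285 and 0.0224, but Mgl2 missed it without co-culture replicate 1 or 2 or ex vivo replicate 1 or 3 (up to 0.103) and Clec10a without co-culture replicate 2 or 3 or ex vivo replicate 3 (up to 0.0867). Higher were Tgm2, the beta-glucan receptor Clec7a (82.1, 56.6 and 85.0 CPM against 782, 898 and 2612 CPM, log2 4.22, SE 0.76, adjusted p = 0.00181), the interleukin receptor chain Il4ra (54.2, 68.9 and 68.9 CPM against 441, 439 and 254 CPM, log2 2.52, SE 0.31, adjusted p = 0.000116) and the mannose receptor Mrc1 (adjusted p = 0.0242, missed without co-culture replicate 1 or 2 or ex vivo replicate 1 or 3, up to 0.0938). Arg1, arginase, lay at 368, 1425 and 566 CPM ex vivo and 10642, 13448 and 16916 CPM in co-culture without passing the test (log2 4.07, SE 1.40, adjusted p = 0.0646, and 0.0171 with the batch block).

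Some antigen presentation and interferon genes were called, beside 9.47% higher and 5.45% lower over all genes tested. The median was -1.77 over the MHC class II list and 0.16 over the interferon-stimulated list. Of 10 MHC class II genes 3 were lower and 0 higher (1 higher with the batch block): H2-Aa (21.7, 49.2 and 13.6 CPM against 1.36, 0.96 and 1.49 CPM, log2 -4.51, SE 0.70, adjusted p = 0.000627), H2-Eb1 (adjusted p = 0.00609) and Cd74, the invariant chain (adjusted p = 0.0218, missed without co-culture replicate 1 or 2 or ex vivo replicate 2, up to 0.15, and with the 6 libraries alone, 0.0613). The chemokine receptor Ccr2 of recruited monocytes was also lower, from 5.32, 38.8 and 15.1 CPM to 3.06, 1.16 and 0.95 CPM (log2 -3.56, SE 0.72, adjusted p = 0.00404). These genes were highest in ex vivo replicate 2, and the part that another cell type in that library plays was not tested. Of 18 interferon-stimulated genes Gbp2b, Gbp3 and Gbp2 were lower and Rsad2 higher, the other 14 not being called (3 were higher with the batch block). Gbp genes have near-identical copies, and counts of uniquely aligning reads may miss the reads that such copies share.

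Inflammatory genes were higher in 7 of 22 cases and lower in 0, beside 9.47% higher and 5.45% lower over all genes tested. Their median was 3.25, and the omission of any single ex vivo library left 4 called higher. Tnf rose from 1.01, 0.43 and 1.18 CPM to 11.7, 7.995 and 15.1 CPM (log2 3.70, SE 0.74, adjusted p = 0.00395). Ccl3, a chemokine, rose from 1.77, 2.53 and 1.30 CPM to 46.7, 48.8 and 264 CPM (log2 5.95, SE 1.15, adjusted p = 0.00309). Icam1 rose from 32.1, 25.4 and 30.5 CPM to 76.3, 83.7 and 87.7 CPM (log2 1.45, SE 0.23, adjusted p = 0.000637). Il1b and Cxcl3 were not called (adjusted p = 0.128 and 0.123, the latter 0.0139 with the batch block), and co-culture replicate 3 alone held most of their counts, with 219 and 2331 CPM against at most 2.92 and 16.2 CPM in its partners. Among the early response genes Egr2 rose by 5.42 (SE 1.21) and Jun by 1.55 (SE 0.28) on the log2 scale. In that list 5 of 20 were higher and 0 lower (8 and 2 with the batch block), beside the same 9.47% and 5.45%.

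Over all genes tested 9.47% were called higher and 5.45% lower, shares to set beside each count in this paragraph. Of 14 metalloproteinases and their inhibitors, 5 of them in the stromal class, 8 were higher and 0 lower, with a median of 5.94. The stromal class held 3 of these 8, and 5 stayed higher without ex vivo replicate 1 or 2. Among the genes called higher was the membrane-bound Mmp14 (0.16, 1.49 and 0.64 CPM against 91.5, 143 and 380.1 CPM, adjusted p = 0.00016). Of 11 Ms4a genes 5 were higher and 0 lower in the full fit and in each omission, with a median of 2.59. Of 16 lipoxygenase and prostanoid genes 3 were higher, including Hpgds and the thromboxane synthase Tbxas1 (log2 1.05, SE 0.14), and 2 lower (4 with the batch block). Of these Ltc4s, leukotriene C4 synthase, fell from 319, 372 and 294 CPM to 34.3, 43.9 and 12.7 CPM (log2 -3.48, SE 0.44, adjusted p = 0.000125), whereas Alox5 lost its call in all 6 omissions (up to 0.152) and with no filter (0.051). Heat shock genes gave 3 of 11 lower and 0 higher (5 lower with the batch block), led by Hspa1a and Hspa1b (20.5, 34.8 and 33.3 CPM against 2.03, 3.24 and 0.77 CPM for Hspa1a). Hspa1a and Hspa1b are near-identical copies, and counts of uniquely aligning reads may miss the reads they share.

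**Figure D3:**
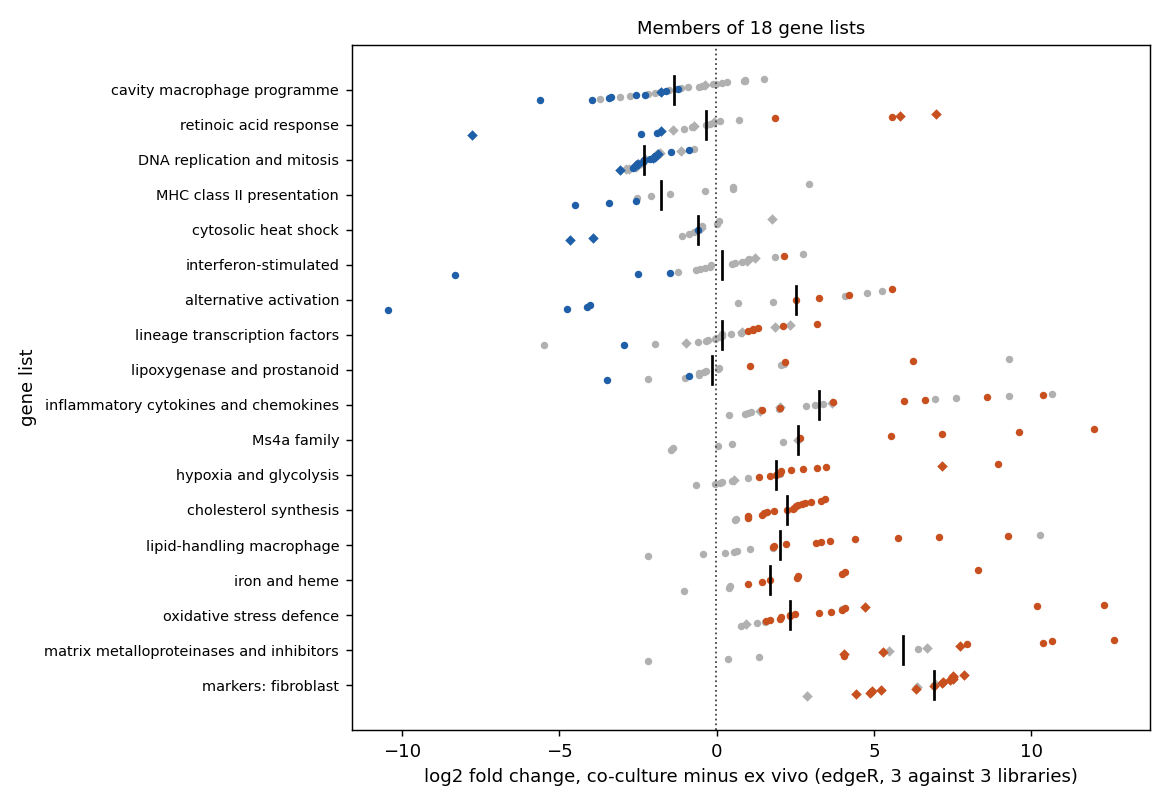
Log2 fold change of co-culture minus ex vivo for the tested members of 18 gene lists; orange is called higher, blue called lower, grey not called, diamonds are stromal class genes, black bars are list medians and the dotted line is the median of all genes tested. Sterol genes sit to the right (16 of 19 called), replication genes to the left (13 of 26), and alternative activation lies on both sides (4 higher, 4 lower).

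The stromal class, of which 18.8% was called higher and 6.05% lower, held the fibroblast markers. Of 16 fibroblast markers, all in this class, 13 were called higher and 0 lower, with a median of 6.92, and 7 stayed called without co-culture replicate 1 or without any 1 ex vivo library. Of 18 matrix and contractile genes 15, all in the class, were higher and 0 lower, with a median of 6.08. Col1a1, the collagen chain, lay at 2.94, 0.02 and 1.21 CPM ex vivo and 295, 141 and 68.3 CPM in co-culture (log2 6.91, SE 1.17, adjusted p = 0.0012). Acta2, smooth muscle actin, lay at 0.98, 1.19 and 1.36 CPM against 218, 147 and 61.7 CPM (log2 6.87, SE 0.60, adjusted p = 5.30e-06). The markers summed to 1287, 508 and 307 CPM in co-cultured macrophages, 3.14%, 1.18% and 1.80% of their sum in the PDPN+ cells of the same batch. Those PDPN+ libraries held 40950, 43120 and 17060 CPM of the markers and came from 25000, 3730 and 2148 sorted cells. In macrophages the marker sum was 11.4, 0.89 and 4.62 CPM ex vivo, 31.0, 6.87 and 105 CPM alone, and 44.9, 29.1 and 160.2 CPM across a transwell.

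For the 419 stromal class genes called higher, the level in co-cultured macrophages was a median of 3.45% of that in co-cultured PDPN+ cells (quartiles 2.31% and 9.09%). In 320 of them it was at most 10%, in 87 between 10% and 100%, and in 12 above 100%. The parts of carried RNA and of expression by the macrophages in these levels were not tested. The median log2 difference from ex vivo over all 2231 genes was 0.73 in co-culture, 0.14 across a transwell and -0.10 alone. These 3 comparisons share the ex vivo libraries, and the rule that defines the class used the levels in macrophages alone, which by itself pushes the value for macrophages alone down and lets no comparison be drawn from it.

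The genes named at the top of the class differed in that share. Nap1l5 had no count ex vivo and 6.30, 11.2 and 33.1 CPM in co-culture, at least 632-fold higher, and stood at 1087% of the stromal level. That level was only 1.55 CPM. Its place in the class rests on low levels, 0.96 CPM in PDPN+ cells alone and 0.09 CPM in macrophages alone. Macrophages given all-trans retinoic acid averaged 22.5 CPM of it. Ch25h, which makes 25-hydroxycholesterol, had 1 count ex vivo and 24.4, 28.7 and 97.1 CPM in co-culture, 140% of the stromal level. By contrast the contractile gene Cnn1 (31.4, 19.4 and 11.0 CPM), Fermt2 of integrin adhesions (15.9, 8.43 and 6.34 CPM) and Cyp1b1 (32.4, 10.5 and 9.73 CPM) stood at 3.19%, 3.01% and 2.13% of it. Cnn1 and Fermt2, like Col1a1, were highest in co-culture replicate 1 and lowest in replicate 3, the reverse of Ch25h and Nap1l5. Cyp1b1 lost its call without any 1 ex vivo library (up to 0.0834). Rgs16 and Sox4, at 41.5 and 148 CPM in replicate 3 and under 10 CPM in its partners, each lost their call without co-culture replicate 3 and without any 1 ex vivo library (up to 0.151 and 0.0612), while Speg kept its own. Among the 135 called lower were Hspa1b, Hspa1a, Ppp1r26, Nudt17 and Pask, which kept their call in each omission. Cit, Sorcs2 and Cldn10 were called lower too. Cit reached 0.0535 without ex vivo replicate 2. Sorcs2 lost its call in every omission (up to 0.135), and Cldn10 in every one but that of co-culture replicate 1 (up to 0.104). All of these genes but Cldn10 had a higher mean ex vivo than in PDPN+ cells alone. Ppp1r26 averaged 22.8 CPM ex vivo, 3.38 CPM in PDPN+ cells alone and 0.44 CPM in macrophages alone. Hspa1b averaged 63.8, 38.7 and 0.90 CPM in the same order. The place of both in the class rests on their low level in macrophages alone.

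**Figure D4:**
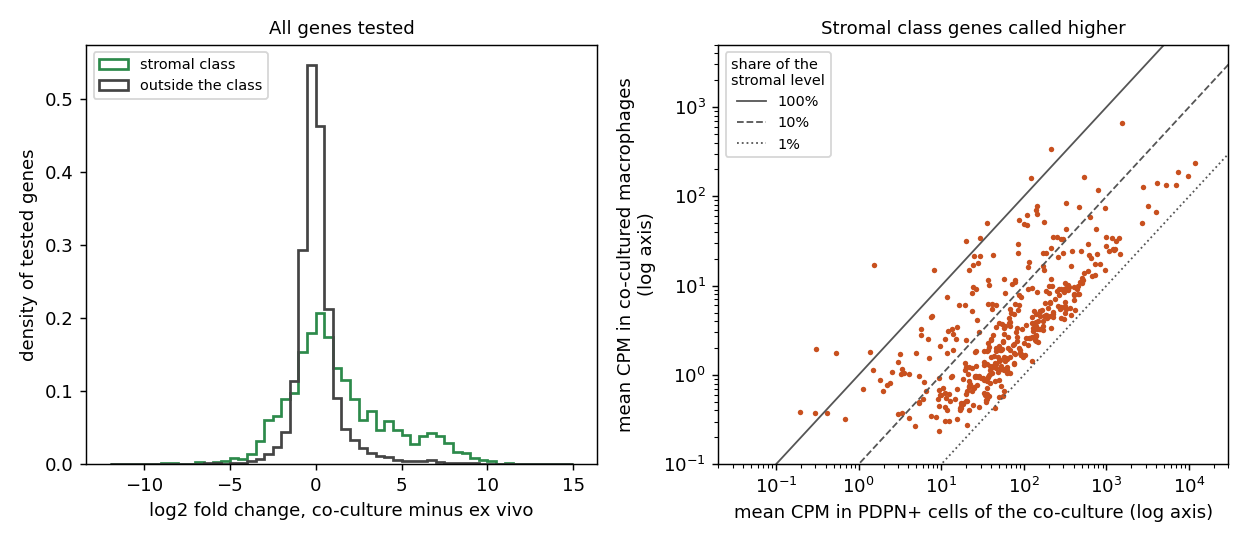
Left, density of log2 fold changes (co-culture minus ex vivo) for genes outside and inside the stromal class; right, for the 419 class genes called higher, mean level in co-cultured macrophages against mean level in co-cultured PDPN+ cells, in CPM on log axes. The class is shifted to the right (median 0.73 against -0.05), and most points lie between the 1% and 10% lines.

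Markers of other cells were called in part, beside 9.47% higher over all genes tested. Of 7 B cell markers 1 was higher, Cd22 (20.7 to 42.0 CPM in co-culture), of 7 T cell markers 1, Il7r (0.0518 without ex vivo replicate 3), and of 2 granulocyte markers 1, S100a8, whose call was lost without co-culture replicate 2 or 3 and without any 1 ex vivo library (up to 0.15). No mast cell marker of 6 was called. Of 6 mesothelial markers, all in the stromal class, 1, Lrrn4, was higher (not without co-culture replicate 1 or 2 or ex vivo replicate 1 or 2), and the list summed to 30.3, 4.52 and 0.36 CPM in co-culture and to at most 0.69 CPM ex vivo. The 3 endothelial markers tested were called higher (1 stayed called without co-culture replicate 1 or any 1 ex vivo library), with Pecam1 at 0.19, 1.21 and 0.55 CPM ex vivo, 10.3, 23.1 and 7.26 CPM in co-culture and at most 1.58 CPM alone (adjusted p = 0.00404). Its part in the results above was not tested. Of 8 dendritic cell and monocyte markers 1 was higher and 1, Ccr2, lower.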

How the data were processed

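PolyA RNA of mouse macrophages and PDPN+ cells was measured in 30 libraries of 10 groups. The deposited counts are, per the file headers, reads uniquely aligning to each of 50764 gene models. The deposited RPKM are, per the file headers, adjusted by size factors of the authors and were used only to compare scaling (largest absolute log2 difference between libraries 0.043). The submitters' processing notes name GSNAP and GRCm38; no source used here gives the aligner version, annotation, strand setting or read filters, and overlapping and antisense genes cannot be separated. Identifiers without a symbol (192) held 0.0358% of counts and stayed in the fit. Replicates were no copies of each other (chi-square per degree of freedom 42.7 to 433.1 within the compared groups).

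The 18 macrophage libraries were fitted together with edgeR 4.0.16 (run in R 4.3.3 with limma 3.58.1), using TMM scaling and the default low count filter by group, with group as the only factor (common biological coefficient of variation 0.499). The script was tested on simulated data. SE is the log2 fold change divided by the root of F, and 95% intervals use the 12 residual degrees of freedom. Floors and binomial intervals cover counting error only. Labels put each replicate number in 1 of 3 batches (336, 339 and 340), so the numbers pair libraries. Deviations of same-batch pairs of the 2 groups correlated at 0.0351, 0.0243 and -0.0289 across genes. Named genes were called, did not overlap between groups and had at least 10 CPM in the higher group: the 15 largest changes each way outside the stromal class, 8 each way inside, and list members. Members, lists and tests were chosen with earlier results of these data known. Alternatives were RLE scaling, DESeq2 1.42.0, no filter, a batch block, the 6 libraries alone, omissions, an adjusted p under 0.01 and other class limits. Some items are not reported here.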

Additional observations from a re-analysis of the deposited data

How the results depend on the processing

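The batch block paired the libraries by label; beyond the genes outside the class called lower (1347 against 833) it moved none of the other 4 overall counts by over 1.5 times. Among the genes named, the block changed the call of Alox15, Timd4, Arg1, Cxcl3 and Mki67 and of no other. The 6 libraries alone and DESeq2 each called 218 stromal class genes lower (135 in the main test). At an adjusted p under 0.01, 1187 genes were called in all, 675 higher and 304 lower outside the class, and 170 higher and 38 lower in it. A class limit of 2 or 10 times gave 316 or 55 class genes called lower. With 0.5 CPM added to both levels before the class limit was applied, 393 class genes were called higher and 105 lower. Leaving out 1 library gave 1581 to 1922 calls in all, 817 to 1116 higher and 412 to 550 lower outside the class, and 211 to 365 higher and 50 to 103 lower in it; each such fit has fewer samples. Without batch 340 the total was 2485, of which 1893 were also called in the main test in the same direction. The log2 difference of Gata6, which was not called, turned to 0.23 without batch 340 and ranged from -0.77 to 0.20 with 1 library left out (highest without ex vivo replicate 3). That of Apoe, not called either, turned to -2.47 with the replicate block and ranged from -0.19 (without co-culture replicate 1) to 0.89. Sla2 turned to -0.56 without batch 340. The cause of each such shift was not tested. With 3 libraries a group, a miss of the threshold does not show likeness.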

Other observations

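Some receptors of innate immunity were also higher in co-culture. Tlr8, an endosomal RNA sensor, rose from 32.6, 30.8 and 42.0 CPM ex vivo to 157, 154 and 101 CPM in co-culture (log2 1.93, SE 0.32, adjusted p = 0.00101 in edgeR's quasi-likelihood test). Colec12, a scavenger receptor, rose from 121, 17.3 and 92.5 CPM to 304, 381 and 524 CPM (log2 2.35, SE 0.53, adjusted p = 0.00823, and 0.0535 without batch 340). C5ar1, the receptor of the complement fragment C5a, rose by 1.29 on the log2 scale (SE 0.31, adjusted p = 0.0106, and 0.0514 without ex vivo replicate 3). Add3, an adducin that caps actin and was abundant ex vivo, fell from 1184, 1179 and 1048 CPM to 134, 183 and 142 CPM (log2 -2.94, SE 0.26, adjusted p = 5.22e-06). These genes were chosen after their values were seen.

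Co-culture replicate 3 diverged from its partners for some of the most abundant macrophage transcripts. Apoe, a lipid carrier, lay at 22174, 18899 and 611 CPM in co-culture and at 13755, 8871 and 10851 CPM ex vivo, and at 43830, 45576 and 808 CPM in macrophages alone, where batch 340 was also the low library. Gas6, a bridging molecule for apoptotic cells, lay at 1283, 969 and 20.6 CPM in co-culture (adjusted p = 0.0209, lost without any 1 ex vivo library, up to 0.0833).

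Sla2, an adaptor of lymphocyte signalling in the stromal class, was called higher (log2 11.46, SE 2.67, adjusted p = 0.00985) on the strength of 1 library. It lay at 1016 CPM in co-culture replicate 3 and at 0.18 and 0.04 CPM in the others, and without co-culture replicate 3 the adjusted p was 0.985. Among all 30 libraries 4 exceeded 100 CPM, the other 3 being of PDPN+ cells, and the remaining 26 held at most 0.347 CPM.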
